A study of Mus musculus with 32 samples.

Results

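The cytochrome P450 family 4 (Cyp4) genes encode fatty acid hydroxylases of the endoplasmic reticulum, and 10 of them were followed here in mouse liver RNA-seq: Cyp4a10, Cyp4a12a, Cyp4a12b, Cyp4a14, Cyp4a31, Cyp4a32, Cyp4f13, Cyp4f14, Cyp4f15 and Cyp4v3. They were taken by gene symbol from the 41585 gene entries of the count tables, and all 10 were found in both the table of females and the table of males. The series asked what the Cyp2b enzymes of the liver do when a diet brings on nonalcoholic steatohepatitis (NASH). Female and male C57BL/6 mice, given as C57Bl/6J in the study's methods, were wildtype (WT) or lacked Cyp2b9, Cyp2b10 and Cyp2b13 (Cyp2b-null, a line made by CRISPR/Cas9 editing on that background), and were 10 weeks old when feeding began. For 8 weeks they received a normal chow diet (ND) or the CDAHFD, a high-fat diet (62% fat) that lacks choline, supplies protein as defined L-amino acids and holds 0.1% methionine. The 8 groups of diet, genotype and sex had 4 liver libraries each, 32 in all. WT mice were bought from a supplier, and where the Cyp2b-null mice were bred is not given in the sources used here, so an effect of the source of the mice cannot be told apart from genotype.

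CYP4 enzymes place a hydroxyl group on the last carbon of a fatty acid, the omega position. This first step of omega-oxidation leads, through alcohol and aldehyde dehydrogenases, to dicarboxylic acids that are shortened in peroxisomes, a side route used by the liver when fatty acids are in excess. In rodent liver, Cyp4a10 and Cyp4a14 are textbook targets of the fatty acid receptor PPARα, Cyp4a12a makes the arachidonic acid product 20-HETE and is known for higher levels in males, and Cyp4f enzymes inactivate leukotriene B4 and other eicosanoids. Cyp4v3 is the mouse counterpart of human CYP4V2, a fatty acid hydroxylase whose loss causes a crystalline dystrophy of the retina.

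The 6 Cyp4a genes lie together on chromosome 4 (GRCm38, GENCODE annotation), from Cyp4a12a at chr4:115299046-115332815 through Cyp4a12b, Cyp4a14, Cyp4a10 and Cyp4a31 to Cyp4a32 at chr4:115600969-115621602. The 3 Cyp4f genes lie on chromosome 17, with Cyp4f15 at chr17:32685627-32703352, Cyp4f14 at chr17:32905070-32917342 and Cyp4f13 at chr17:32924688-32947402. Cyp4v3 lies alone at chr8:45304944-45333216. Some Cyp4a genes are near copies of each other, which matters for every count given for them. The coding sequences of Cyp4a10 and Cyp4a31 were 96.6% identical, those of Cyp4a10 and Cyp4a32 were 97.2% identical, and those of Cyp4a12a and Cyp4a12b were 98.5% identical. Cyp4a10 and Cyp4a14 shared 75.7%, and the Cyp4f coding sequences shared between 74.5% and 80.0% of their bases. The stretch that encodes the haem-binding signature around the conserved cysteine is shown because it holds the cysteine that binds the haem iron in P450 enzymes; capitals mark the bases that differ from Cyp4a10, and Cyp4a31 and Cyp4a32 have the same 69 bases as Cyp4a10.
Cyp4a10, coding bases 1333 to 1401: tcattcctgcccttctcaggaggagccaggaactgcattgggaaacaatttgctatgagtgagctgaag
Cyp4a12a and Cyp4a12b, coding bases 1330 to 1398: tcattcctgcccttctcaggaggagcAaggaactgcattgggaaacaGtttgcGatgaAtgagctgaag
Cyp4a14, coding bases 1327 to 1395: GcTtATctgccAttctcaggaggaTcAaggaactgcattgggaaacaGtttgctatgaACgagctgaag

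Elsewhere the copies can be separated. The next sequences show the 70 coding bases in which the copies differ most, with the positions that differ within each set in capitals. There were 10 such positions among Cyp4a10, Cyp4a31 and Cyp4a32 in this stretch and 77 in the whole coding sequence of 1527 bases, against 5 and 23 for Cyp4a12a and Cyp4a12b.
Cyp4a10, coding bases 190 to 259: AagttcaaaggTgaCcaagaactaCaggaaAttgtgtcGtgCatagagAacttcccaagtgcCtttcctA
Cyp4a31, coding bases 190 to 259: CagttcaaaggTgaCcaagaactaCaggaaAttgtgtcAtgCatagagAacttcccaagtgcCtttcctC
Cyp4a32, coding bases 190 to 259: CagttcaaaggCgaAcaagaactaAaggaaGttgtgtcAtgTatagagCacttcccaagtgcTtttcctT
Cyp4a12a, coding bases 681 to 750: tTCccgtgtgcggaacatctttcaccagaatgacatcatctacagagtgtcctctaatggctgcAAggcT
Cyp4a12b, coding bases 681 to 750: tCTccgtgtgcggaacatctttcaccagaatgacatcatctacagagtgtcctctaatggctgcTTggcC

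With reads of 150 bases, 4.34% of the windows of that length along the Cyp4a10 transcript, 4.19% along Cyp4a31 and 7.97% along Cyp4a32 occurred without a mismatch in another member. The shares were 25.6% for Cyp4a12a and 25.9% for Cyp4a12b, and no window of Cyp4a14, of the Cyp4f genes or of Cyp4v3 was shared. How the counting treated reads that fit more than 1 gene is not given in the sources used here. Counts of Cyp4a12a and Cyp4a12b, and to a lesser degree of Cyp4a10, Cyp4a31 and Cyp4a32, are therefore uncertain within each set. Sums are given with the diet effects, except for Cyp4a12a and Cyp4a12b in females, and with the called sex differences.

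Library totals ran from 2906411 to 10166959 counts. Levels are CPM (counts scaled to a common library size) after TMM normalization, given as mean ± SD of the 4 libraries. Changes are log2 fold changes ± SE, tested with edgeR's quasi-likelihood method on all genes of a table. A gene was called at a Benjamini-Hochberg adjusted p-value under 0.05. The deposited labels do not say that the libraries came from separate animals, so p-values measure the spread between these libraries. The deleted genes fitted the labels where WT mice expressed them: Cyp2b9 had at least 683 counts in each WT female and at most 8 in each Cyp2b-null female, and Cyp2b13 had at least 470 against at most 1. In ND-fed males Cyp2b10 had 33 to 97 counts with the gene and 1 to 9 without it, whereas Cyp2b9 and Cyp2b13 were too low in ND-fed WT males to check anything. CDAHFD-fed Cyp2b-null female replicate 3 stood apart: its mean correlation with its own group was 0.941, against 0.954 to 0.974 for the other 31 libraries. That library and CDAHFD-fed Cyp2b-null male replicate 4 are absent from the study's heat maps, and results that depend on them are given with and without them.

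The CDAHFD changed the makeup of the libraries, and the members are read beside that. In the tissue check, the summed level of 8 hepatocyte markers was 104894 to 190595 CPM in the 16 ND-fed libraries and 54049 to 115162 CPM in the 16 CDAHFD-fed libraries, with Alb, Apoa1 and Ttr among them. Kidney markers, another site of Cyp4a expression, were at 0 to 0.818 CPM in all 32 libraries, pancreas markers at 4.99 to 20.6 CPM, and adipocyte markers at or below 3.3 CPM except in ND-fed Cyp2b-null males (3.22 to 33.4 CPM). Macrophage markers rose from 87.1 to 329 CPM on ND to 677 to 1841 CPM on CDAHFD, and 6 of the 7 tested were called higher in each sex and genotype. Over all genes between 13.9% and 20.3% were called higher in these comparisons. Stellate cell and fibroblast markers were at 44.6 to 97.4 CPM on ND and 284 to 545 CPM on CDAHFD, and cholangiocyte markers at 20.7 to 61.5 CPM and 99 to 316 CPM. Neutrophil markers were at 0.184 to 1.98 CPM and 2.84 to 15.8 CPM, lymphocyte markers at 2.18 to 6.9 CPM and 3.43 to 12.6 CPM, and endothelial markers at 126 to 253 CPM and 113 to 234 CPM. In the order WT females, Cyp2b-null females, WT males and Cyp2b-null males, 2, 3, 2 and 2 of 5 cholangiocyte markers were called higher. Of 5 endothelial markers 0, 0, 1 and 3 were called higher and 2, 2, 1 and 0 lower. Stellate cell and fibroblast markers were called higher for 5, 6, 5 and 6 of 7. Hepatocyte markers were called lower for 7, 6, 8 and 6 of 8. Over all genes between 10.2% and 17.1% were called lower. In bulk liver, fewer hepatocytes, less RNA per hepatocyte and lower expression of the marker genes themselves cannot be told apart.

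On ND the members together took up 1690 to 4350 CPM in the 8 female libraries and 1771 to 2520 CPM in the 8 male libraries. Levels per kilobase were taken over the merged exons of all annotated transcripts of a gene, and their order differed between the sexes. Merged exons can be longer than a single transcript. Cyp4f13 had 4441 such bases from 14 transcripts, so its level per kilobase and its place in the order depend on that length. In ND-fed WT females Cyp4a14 led with 455 CPM per kilobase, followed by Cyp4a10 with 297, Cyp4f14 with 144, Cyp4v3 with 85.8 and Cyp4f15 with 72.0 CPM per kilobase. The spread of Cyp4a14 and Cyp4a10 was wide (coefficients of variation of 68.2% and 68.6%), but they rose and fell together, and Cyp4a14 was above Cyp4a10 per kilobase within each of the 4 libraries (1.19- to 2.12-fold). Cyp4a32, Cyp4f13 and Cyp4a31 were at 18.6, 14.5 and 5.57 CPM per kilobase, and Cyp4a12a and Cyp4a12b had 0 counts in all 4 libraries. In ND-fed WT males 4 members lay close together, Cyp4v3 and Cyp4f14 at 159 CPM per kilobase each, Cyp4a14 at 136 and Cyp4a10 at 134, and Cyp4a12a followed at 104 CPM per kilobase. Cyp4f15 had 60.1, Cyp4a12b 26.7, Cyp4a32 20.8, Cyp4f13 16.2 and Cyp4a31 2.12 CPM per kilobase there. The plot of the members by library shows these levels in all 8 groups.

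**Figure D1:**
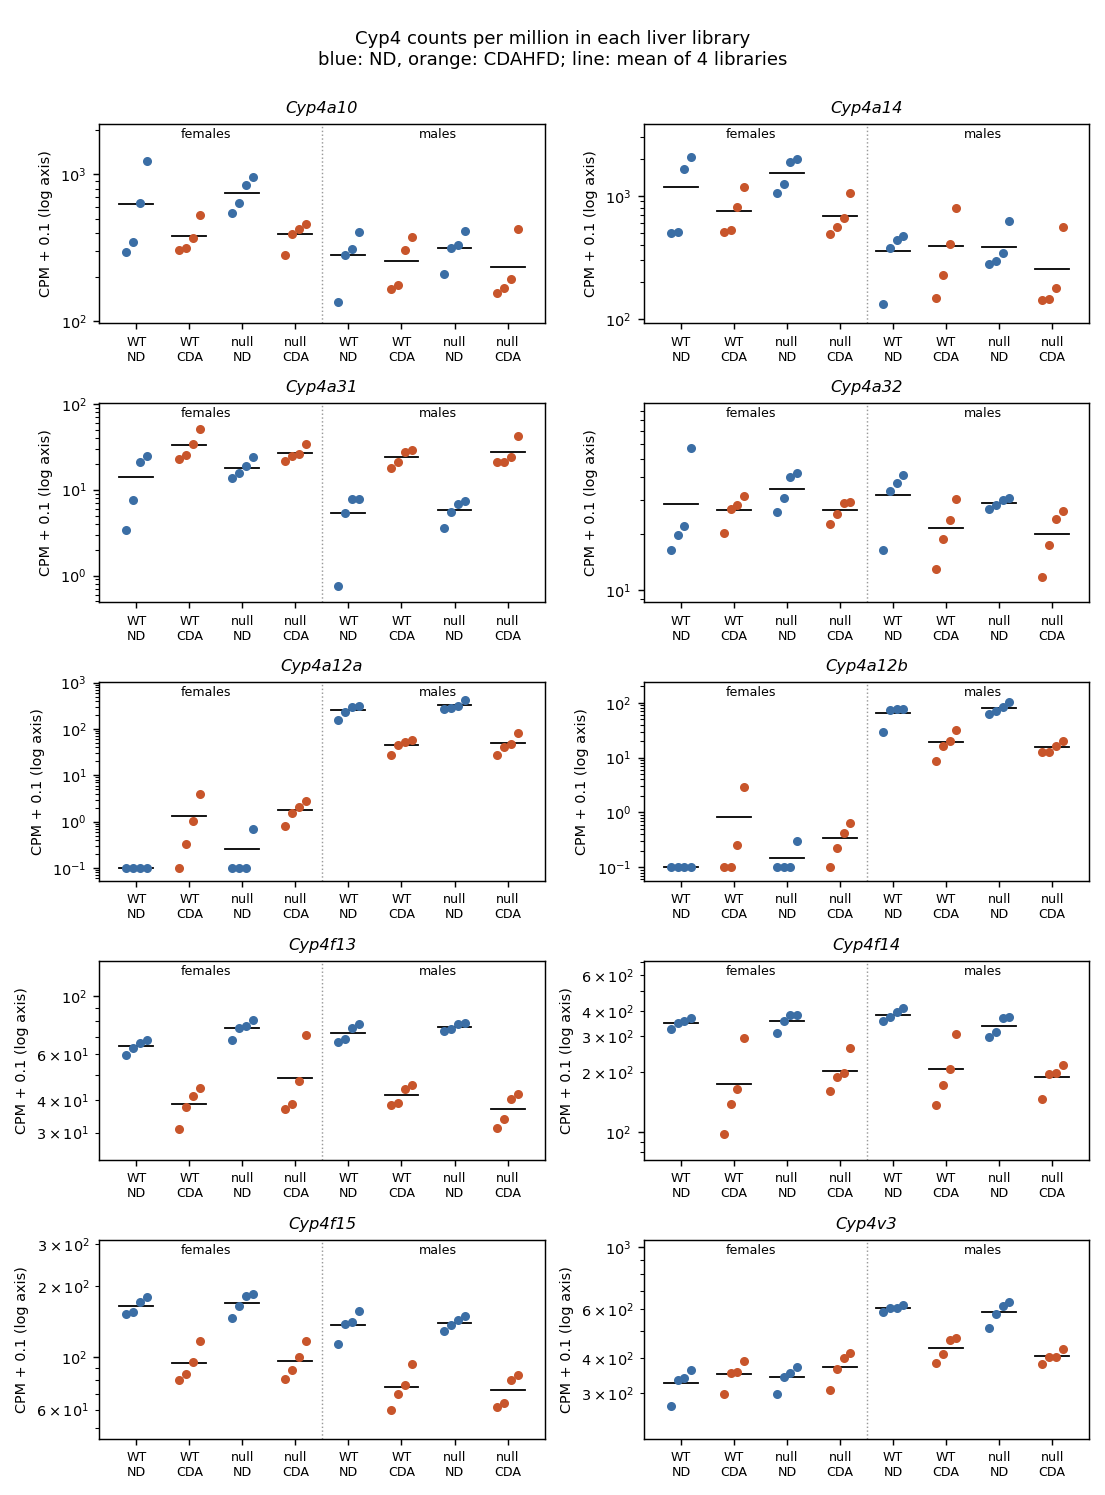
CPM of each of the 10 Cyp4 genes (vertical axis, logarithmic, CPM + 0.1) in every library of the 8 groups (horizontal axis); points are libraries and short lines are means of 4. The 3 Cyp4f genes sit lower in CDAHFD-fed than in ND-fed libraries, Cyp4a31 sits higher, and Cyp4a12a and Cyp4a12b are near 0 in females.

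The main comparison was CDAHFD against ND within each sex and genotype. Most members that changed fell. In WT females 3 of the 8 members tested were called lower and 1 higher (over all genes 10.2% were called lower and 13.9% higher), and in Cyp2b-null females 5 of 8 were called lower and 0 higher (all genes 13.9% and 16.9%). In WT males 6 of 10 were called lower and 1 higher (all genes 15% and 18%), and in Cyp2b-null males 6 of 10 and 1 (all genes 17.1% and 20.3%). The median log2 change of the members tested was -0.67 in WT females, -0.70 in Cyp2b-null females, -0.68 in WT males and -0.72 in Cyp2b-null males, beside medians over all genes of -0.00, 0.03, -0.02 and -0.01. Cyp4a12a and Cyp4a12b did not pass the low-count filter in females. Without TMM, scaled by library size only, the median of all genes moved to between 0.28 and 0.37, and the share of calls that were higher on CDAHFD moved from between 54.3% and 57.6% to between 85.7% and 89.7%.

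**Figure D2:**
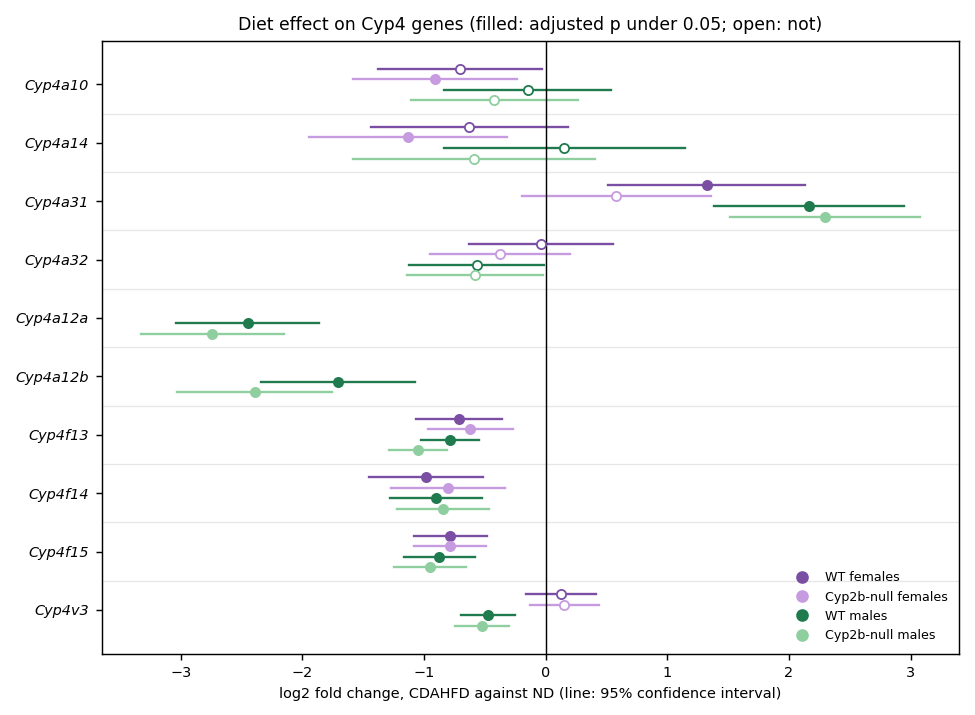
Log2 fold change of CDAHFD against ND (horizontal axis) with its 95% confidence interval for each Cyp4 gene in WT and Cyp2b-null females and males; filled points passed an adjusted p-value of 0.05 in edgeR's quasi-likelihood test. The Cyp4f genes lie between -1.05 and -0.62 in all 4 comparisons, while Cyp4a31 lies between 0.58 and 2.30.

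Cyp4f14, a leukotriene B4 hydroxylase of mouse liver, fell in all 4 comparisons. In ND-fed WT females it was at 369, 349, 324 and 356 CPM, and in CDAHFD-fed WT females at 164, 138, 294 and 98.2 CPM. Every CDAHFD-fed library lay below every ND-fed library, although replicate 3, at 294 CPM, came close to them. The change was -0.99 ± 0.23 (log2, SE), a 1.98-fold fall (n = 4 and 4, edgeR adjusted p = 0.00261). In Cyp2b-null females the levels went from 357 ± 34 to 202 ± 42.7 CPM, a log2 change of -0.80 ± 0.22 (edgeR adjusted p = 0.00985). WT males had 356, 372, 396 and 412 CPM on ND and 307, 205, 172 and 136 CPM on CDAHFD, again without overlap, a log2 change of -0.90 ± 0.18 (edgeR adjusted p = 0.000558). In Cyp2b-null males the levels were 338 ± 38.2 and 188 ± 29.8 CPM, with a log2 change of -0.85 ± 0.18 (edgeR adjusted p = 0.000837).

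Cyp4f15 and Cyp4f13, its neighbours on chromosome 17, fell by similar amounts. Cyp4f15 in WT females was at 172, 179, 152 and 155 CPM on ND and at 95, 117, 84.7 and 79.7 CPM on CDAHFD. In WT males it was at 157, 114, 140 and 138 CPM on ND and at 93.7, 75.8, 59.7 and 69.97 CPM on CDAHFD. The groups did not overlap in either sex, and the log2 changes were -0.78 ± 0.14 in WT females, -0.78 ± 0.14 in Cyp2b-null females, -0.87 ± 0.14 in WT males and -0.95 ± 0.14 in Cyp2b-null males (edgeR adjusted p between 1.69e-05 and 0.000343). Cyp4f13 was the least abundant of them. It stood at 64.2 ± 3.63 CPM in ND-fed and 38.5 ± 5.88 CPM in CDAHFD-fed WT females, and at 71.9 ± 5.46 and 41.6 ± 3.74 CPM in WT males. Its log2 changes were -0.71 ± 0.17 and -0.62 ± 0.17 in WT and Cyp2b-null females (edgeR adjusted p = 0.00373 and 0.00795), and -0.79 ± 0.11 and -1.05 ± 0.11 in WT and Cyp2b-null males (edgeR adjusted p = 1.91e-05 and 3.9e-07).

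The share of all genes without overlap between the diets was not computed, so the overlap of the Cyp4f genes is a description only. Of the 12 Cyp4f comparisons, 11 had no overlap between the diets, and the falls were 1.54- to 2.07-fold. The exception was Cyp4f13 in Cyp2b-null females, where 1 CDAHFD-fed library, replicate 3, had 70.9 CPM against 36.8 to 47.3 CPM in the other 3 and 67.8 to 81.1 CPM on ND. That is the library which stood apart from its group over all genes. Without it the log2 change of Cyp4f13 was -0.85. With scaling by library size only, the Cyp4f13 change in females was -0.39 in both genotypes and did not pass the threshold (edgeR adjusted p = 0.0578 in WT and 0.0537 in Cyp2b-null).

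The Cyp4f genes fell together on CDAHFD, so their promoters are shown. The bases before the RefSeq start of each gene (GRCm38.p6) are given up to 120 bases and ending before any annotated transcript, with capitals marking ATTGG, the CCAAT box read on the other strand.
Cyp4f13, chr17:32947403-32947481, minus strand: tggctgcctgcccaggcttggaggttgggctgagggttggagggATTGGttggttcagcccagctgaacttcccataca
Cyp4f14, chr17:32917357-32917476, minus strand: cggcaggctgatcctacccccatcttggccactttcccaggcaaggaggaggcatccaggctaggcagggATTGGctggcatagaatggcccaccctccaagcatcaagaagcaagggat
Cyp4f15, chr17:32685539-32685626, plus strand: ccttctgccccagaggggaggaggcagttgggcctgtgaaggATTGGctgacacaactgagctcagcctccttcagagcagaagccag
Cyp4v3, chr8:45333217-45333283, minus strand: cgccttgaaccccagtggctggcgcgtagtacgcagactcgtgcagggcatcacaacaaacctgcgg

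ATTGG began 76, 50 and 78 bases before the start of Cyp4f13, Cyp4f14 and Cyp4f15, also stood 80 bases before the start of Cyp4a32, and was not in the window of Cyp4v3. Read on either strand it occurred in 34.5% of 27025 RefSeq promoter windows of 250 bases, so that its presence is common. The DR1 element bound by PPARα with its partner, a pair of AGGTCA sites in direct repeat with 1 base between them, was searched on both strands with up to 2 mismatches and was found in 0 of the 5 member promoters searched (Cyp4a32, Cyp4f13, Cyp4f14, Cyp4f15 and Cyp4v3), against 3.18% of all promoters. The promoters of Cyp4a10, Cyp4a12a, Cyp4a12b, Cyp4a14 and Cyp4a31 were not searched, so nothing is said here of the members best known as PPARα targets. A match or its absence in these letters is a description and not a binding result.

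Cyp4v3 was the member whose response was called in males alone. In WT males it was at 608, 620.5, 605 and 585 CPM on ND and at 467, 473, 416 and 386 CPM on CDAHFD, with no overlap and a log2 change of -0.47 ± 0.11 (edgeR adjusted p = 0.00177). In Cyp2b-null males it went from 586 ± 53.3 to 407 ± 21.1 CPM, a log2 change of -0.52 ± 0.11 (edgeR adjusted p = 0.00056). In females it did not pass the test, with 327 ± 40.4 and 351 ± 39.2 CPM in WT and 343 ± 32 and 374 ± 47.9 CPM in Cyp2b-null mice. The difference of the WT diet effects between the sexes did not pass the threshold either (edgeR adjusted p = 0.0913). Scaled by library size only, the male changes were -0.09 and -0.16 and were not called (edgeR adjusted p = 0.511 and 0.209).

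Cyp4a12a and its near copy Cyp4a12b, the 20-HETE-forming genes, were nearly confined to males in these livers and showed the deepest falls among the members tested there. In ND-fed WT males Cyp4a12a was at 300, 236, 315 and 159 CPM, and on CDAHFD it was at 57.9, 27.2, 53.6 and 45.5 CPM. The lowest ND-fed library was thus still well above the highest CDAHFD-fed library. The log2 change was -2.45 ± 0.28, a 5.46-fold fall (n = 4 and 4, edgeR adjusted p = 1.0e-06). In Cyp2b-null males Cyp4a12a was at 286, 424, 321 and 273 CPM on ND and at 80.2, 26.8, 47.9 and 40.7 CPM on CDAHFD. This was a 6.68-fold fall without overlap (log2 change -2.74 ± 0.28, edgeR adjusted p = 1.89e-07).

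Cyp4a12b followed at a lower level. In WT males it was at 75.6, 76.4, 74.1 and 29.5 CPM on ND and at 20.4, 8.73, 31.4 and 16.1 CPM on CDAHFD. The groups overlapped by 1 library on each side, since ND-fed replicate 4 lay below CDAHFD-fed replicate 3. The log2 change was -1.71 ± 0.30 in WT males and -2.39 ± 0.31 in Cyp2b-null males (edgeR adjusted p = 0.000166 and 3.01e-06), where the levels were 81.6 ± 18.5 CPM on ND and 15.3 ± 3.76 CPM on CDAHFD. Counted as 1 gene, the copies together changed by -2.27 ± 0.27 in WT males and -2.66 ± 0.27 in Cyp2b-null males on the log2 scale. The summed fall therefore does not rest on how reads were split between them.

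In females these genes were at the limit of detection. Cyp4a12a had 0 counts in all 4 ND-fed WT females and 2, 0, 0 and 0 counts in ND-fed Cyp2b-null females. On CDAHFD it had 0, 1, 19 and 6 counts in WT females and 8, 17, 8 and 6 counts in Cyp2b-null females. Counts thus appeared on CDAHFD in 7 of 8 libraries, at levels of at most 3.78 CPM. Against a floor of 3 counts a library, which covers counting error only, the mean level was at least 1.52-fold higher on CDAHFD in WT and at least 2.17-fold in Cyp2b-null females. The WT bound rests on CDAHFD-fed replicate 3 with its 19 counts: without it the mean was 0.390 CPM, under the ND floor of 0.816 CPM, and no bound remains. In the fit without the low-count filter Cyp4a12a was called in both (edgeR adjusted p = 0.000166 and 0.000867). That fit also gave smaller p-values for other members, for example 0.00015 in place of 0.124 for Cyp4a10 in WT females (edgeR, adjusted). Without CDAHFD-fed WT replicate 3 the WT adjusted p was 0.058, and without ND-fed Cyp2b-null replicate 3 the Cyp2b-null adjusted p was 0.0587. Cyp4a12b had 14 counts in that same WT library and at most 3 in every other female library.

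The sex difference was measured in 1 fit of both tables, in which sex and table cannot be told apart. On ND, 3 of 10 members were higher and 3 lower in WT females than in WT males (over all genes 9.45% were called higher and 8.35% lower in females). Cyp4a12a was at least 310-fold and Cyp4a12b at least 78.3-fold lower in females, computed against the floor of 3 counts a library (edgeR adjusted p = 5.06e-14 and 3.54e-11). These 2 entered the joint fit only through the male libraries, so their place among the calls is a description. Cyp4v3 was also lower in females, at 327 ± 40.4 against 605 ± 14.7 CPM, with a log2 difference of -0.89 ± 0.12 (edgeR adjusted p = 1.17e-06). In the other direction, Cyp4a14 was at 1184 ± 807 CPM in females and 354 ± 153 CPM in males (log2 difference 1.74 ± 0.49, edgeR adjusted p = 0.0126). Cyp4a10 was 1.14 ± 0.36 and Cyp4a31 1.33 ± 0.46 higher on the log2 scale in females (edgeR adjusted p = 0.0248 and 0.0395). These 3 female-high calls rest on single libraries: without ND-fed WT female replicate 2 the adjusted p was 0.246 for Cyp4a10, 0.0671 for Cyp4a14 and 0.162 for Cyp4a31, and without ND-fed WT male replicate 2 it was 0.109, 0.0602 and 0.148. Cyp4a10 also lost its call without male replicate 4 (0.0565), and Cyp4a31 lost it without female replicate 1 (0.199) or male replicate 4 (0.076). Summed into 1 gene, Cyp4a10, Cyp4a31 and Cyp4a32 were 1.06 ± 0.35 higher on the log2 scale in females (edgeR adjusted p = 0.0313). Cyp4a12a and Cyp4a12b summed into 1 gene were lower in females (edgeR adjusted p = 2.06e-13).

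On CDAHFD, 0 of 10 members were higher and 2 lower in WT females (all genes 5.12% and 5.91%). The 2 were Cyp4a12a and Cyp4a12b, with log2 differences of -5.15 ± 0.48 and -4.68 ± 0.55 (edgeR adjusted p = 1.06e-08 and 1.37e-06). Summed into 1 gene, these 2 copies differed by -5.00 ± 0.48 (edgeR adjusted p = 2.37e-08). As on ND, both entered the joint fit only through the male libraries, so their place among the calls is a description. For the diet effect itself, edgeR's quasi-likelihood test of WT females against WT males called 1 member, Cyp4a12a (all genes 0.97%). Nothing is read from that call, since Cyp4a12a did not pass the low-count filter in females and had 0 counts in all 4 ND-fed WT females, so that its female diet effect has no measured value.

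Male-biased liver genes from a fixed list of 8 gave a frame for Cyp4a12a. All 8 were called lower in ND-fed WT females than in males (over all genes 8.35%). They were listed for their male bias, so nothing is read from that count. In WT males on CDAHFD 7 of 8 were called lower and 0 higher, and in Cyp2b-null males 8 of 8 were called lower. Over all genes 15% and 17.1% were called lower in these comparisons. Hsd3b5, a steroid dehydrogenase of male liver, changed by -5.23 ± 0.62 in WT and -7.76 ± 0.76 in Cyp2b-null males (log2). Elovl3, a fatty acid elongase, changed by -4.94 ± 0.42 and -5.59 ± 0.44, and the oxysterol hydroxylase Cyp7b1 by -1.90 ± 0.32 and -2.35 ± 0.32. In females the same list moved less uniformly. Of 7 tested, 1 was called higher and 2 lower in WT mice (all genes 13.9% and 10.2%). In Cyp2b-null mice 1 was called higher and 1 lower (all genes 16.9% and 13.9%). The female rise was Mup20, a major urinary protein, with a log2 change of 4.72 ± 0.31 in WT and 4.77 ± 0.31 in Cyp2b-null females, whereas in WT males its change of -0.59 was not called (difference between the sexes 5.29 ± 0.51, edgeR adjusted p = 3.98e-08). The genes most like Cyp4a12a over the 16 male libraries were Lrit1 and Lect1 (Pearson r = 0.968 each) and Mup19 (r = 0.963), points that share the diet groups.

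Cyp4a10 and Cyp4a14, the PPARα-responsive hydroxylases, varied widely between libraries of a group and changed with diet less clearly than the Cyp4f genes. Cyp4a10 in ND-fed WT females was at 635, 1231, 345 and 295 CPM, and in CDAHFD-fed WT females at 528, 314, 304 and 369 CPM. The groups overlapped, and the log2 change of -0.71 ± 0.32 was not called (edgeR adjusted p = 0.124). It was called without ND-fed replicate 3 (-0.91, edgeR adjusted p = 0.0486) or without ND-fed replicate 4 (-0.94, edgeR adjusted p = 0.0332). In Cyp2b-null females it was at 635, 853, 547 and 955 CPM on ND and at 282, 394, 424 and 462 CPM on CDAHFD. Here the groups did not overlap, and Cyp4a10 fell by 0.91 ± 0.32 on the log2 scale (edgeR adjusted p = 0.0374).

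Cyp4a14 behaved alike. In Cyp2b-null females it was at 1243, 1886, 1048 and 1983 CPM on ND and at 490, 557, 664 and 1050 CPM on CDAHFD, where the highest CDAHFD-fed library just passed the lowest ND-fed one. Its log2 change was -1.13 ± 0.39 (edgeR adjusted p = 0.0325), against -0.63 ± 0.39 in WT females, which was not called (edgeR adjusted p = 0.268). Both calls in Cyp2b-null females were lost without any 1 of 5 libraries, ND-fed replicates 2 and 4 and CDAHFD-fed replicates 1, 2 and 3. The adjusted p was then 0.0881, 0.106, 0.097, 0.0664 and 0.059 for Cyp4a10, and 0.0843, 0.0869, 0.0837, 0.0805 and 0.0689 for Cyp4a14, in that order (edgeR).

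With all libraries neither gene was called in males. Cyp4a10 was at 283 ± 113 CPM on ND and 255 ± 101 CPM on CDAHFD in WT males, and at 316 ± 83.5 and 235 ± 127 CPM in Cyp2b-null males. Cyp4a14 was at 354 ± 153 and 393 ± 288 CPM in WT males, and at 384 ± 159 and 255 ± 201 CPM in Cyp2b-null males. There 1 CDAHFD-fed library, replicate 1, decided the result, with 425 CPM of Cyp4a10 and 555 CPM of Cyp4a14. The other 3 CDAHFD-fed libraries, at 155 to 192 CPM and 142 to 178 CPM, lay below all 4 ND-fed libraries, which were at 208 to 412 CPM and 277 to 619 CPM. Without replicate 1 the CDAHFD means were 172 and 155 CPM, and both genes were called lower, with log2 changes of -0.87 and -1.30 (edgeR adjusted p = 0.0342 and 0.0315). The 95% confidence intervals of the male diet effects reached from -0.83 to 0.54 for Cyp4a10 in WT and from -1.58 to 0.41 for Cyp4a14 in Cyp2b-null mice (log2), wide enough to hold a fall like that of the females.

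The libraries that were high in Cyp4a10 were also high in Cyp4a14. After group means were removed, their log2 levels correlated with r = 0.94 over the 16 female and r = 0.88 over the 16 male libraries, as a description of libraries that share their sequencing and depth. Within groups Cyp4a31 moved with Cyp4a10 as well (r = 0.86 and 0.82), but not once the diet differences were kept in (r = 0.21 and 0.17). Over the female libraries the genes most like Cyp4a10 and Cyp4a14 were the acyl-CoA thioesterase Acot1 (r = 0.927 and 0.908), the activin subunit gene Inhbc (r = 0.914 and 0.928) and the monoglyceride lipase Mgll (r = 0.910 and 0.904). Over the male libraries they were Eci2, Abhd11 and Gm6421 for Cyp4a10 (r = 0.837, 0.802 and 0.802) and Cyp2c38, Rab30 and Gm15708 for Cyp4a14 (r = 0.857, 0.836 and 0.811).

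Cyp4a31, the close copy of Cyp4a10, was the 1 member above the low-count filter that rose. In WT males it was at 7.71, 0.66, 7.67 and 5.24 CPM on ND and at 18, 21, 27.3 and 29.2 CPM on CDAHFD. In Cyp2b-null males it was at 3.44, 7.27, 5.47 and 6.63 CPM on ND and at 42.6, 23.9, 21.1 and 21.1 CPM on CDAHFD. All 8 CDAHFD-fed males thus lay above all 8 ND-fed males. The rises were 4.48-fold in WT (log2 change 2.16 ± 0.38, edgeR adjusted p = 0.000131) and 4.92-fold in Cyp2b-null males (2.30 ± 0.38, edgeR adjusted p = 5.51e-05).

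In females the rise was smaller and the spread wider. WT females had 20.8, 24.4, 7.39 and 3.27 CPM of Cyp4a31 on ND and 51.5, 25.2, 22.5 and 34.1 CPM on CDAHFD, with an overlap of single libraries. The log2 change was 1.32 ± 0.39 (2.5-fold, edgeR adjusted p = 0.0159), and the call was lost without ND-fed replicate 3 (1.13, adjusted p = 0.0555) or without CDAHFD-fed replicate 1 (1.04, adjusted p = 0.0666). In Cyp2b-null females Cyp4a31 was at 18.01 ± 4.53 CPM on ND and 26.5 ± 5.33 CPM on CDAHFD, and its log2 change of 0.58 ± 0.37 was not called (edgeR adjusted p = 0.251). Cyp4a32, the other copy, was called in none of the 4 diet comparisons (edgeR adjusted p between 0.094 and 0.949), and its mean was between 19.7 and 34.6 CPM in all 8 groups. It was called lower in WT males without ND-fed replicate 2 (-0.79, edgeR adjusted p = 0.0152) or CDAHFD-fed replicate 4 (-0.78, edgeR adjusted p = 0.0417), and in Cyp2b-null males without CDAHFD-fed replicate 4 (-0.74, edgeR adjusted p = 0.0489).

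Because Cyp4a31 and Cyp4a10 counts come from neighbouring copies in the same library, their ratio removes what moves both. The Cyp4a31 count was 2.13% ± 0.891 of the Cyp4a10 count in ND-fed WT females and 8.61% ± 1.08 in CDAHFD-fed WT females, and it went from 2.49% ± 0.642 to 6.84% ± 0.83 in Cyp2b-null females. In males it went from 1.68% ± 0.847 to 9.91% ± 2.08 in WT and from 1.80% ± 0.281 to 12.2% ± 1.99 in Cyp2b-null mice (n = 4 each). All 16 ND-fed libraries lay between 0.487% and 3.28%, and all 16 CDAHFD-fed libraries between 5.84% and 14.1%. Taken as differences of mean log2 ratios, the ratio was 4.32-, 2.82-, 6.78- and 6.74-fold higher on CDAHFD. In each comparison the two-sided exact permutation p was 0.02857, the smallest that 4 against 4 libraries allow, and 0.08 after adjustment over the 14 ratio tests made. Ratios were chosen after the data had been seen. The ratios of Cyp4a32 to Cyp4a10 overlapped between diets in 3 of 4 comparisons, and those of Cyp4a14 to Cyp4a10 in all 4. Summed into 1 gene, Cyp4a10, Cyp4a31 and Cyp4a32 changed by -0.59, -0.83, -0.09 and -0.31 (log2, WT females, Cyp2b-null females, WT males, Cyp2b-null males), and none of these was called (edgeR adjusted p between 0.054 and 0.858).

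**Figure D3:**
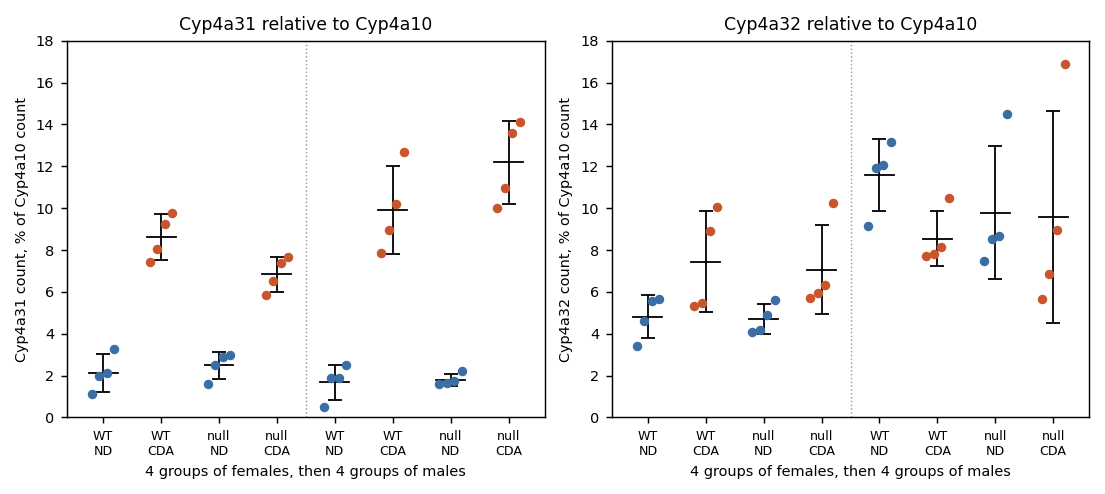
Cyp4a31 count as a percent of the Cyp4a10 count (vertical axis) in each library of the 8 groups; points are libraries, with mean ± SD of 4. No ND-fed library exceeds 3.28% and no CDAHFD-fed library is below 5.84%.

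Since hepatocyte markers fell on CDAHFD, the members were also set against them. The mean log2 level of the 8 hepatocyte markers fell by 0.97 in WT females, 0.77 in Cyp2b-null females, 0.70 in WT males and 0.63 in Cyp2b-null males, each with the smallest possible two-sided exact permutation p of 0.02857 for 4 against 4 libraries. This is about the size of the Cyp4f falls. Relative to the markers the 12 Cyp4f changes lay between -0.41 and 0.23. The diets did not overlap for 3 of 12, Cyp4f15 in WT males (-0.18) and Cyp4f13 and Cyp4f15 in Cyp2b-null males (-0.41 and -0.32, unadjusted two-sided exact permutation p = 0.02857 each). The share of all genes without overlap under this scaling was not computed, so that count is a description only. Relative to the markers Cyp4a12a was still lower on CDAHFD in males (-1.74 in WT and -2.16 in Cyp2b-null mice, exact permutation p = 0.02857 each), and Cyp4a31 was higher in all 4 comparisons (2.42, 1.32, 2.91 and 2.68, exact permutation p = 0.02857 each). Cyp4a12b was at -1.02 in WT males (exact permutation p = 0.05714) and -1.71 in Cyp2b-null males (exact permutation p = 0.02857). Cyp4v3 was 1.07 and 0.89 higher than the markers in WT and Cyp2b-null females (exact permutation p = 0.02857 each). These p-values are unadjusted. Over the 36 tests made, 12 had the smallest possible p, which became 0.0857 after Benjamini-Hochberg adjustment, and 0 passed the threshold. This scaling was added after the data had been seen. It sets the members against these 8 genes and does not measure the share of hepatocytes.

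**Figure D4:**
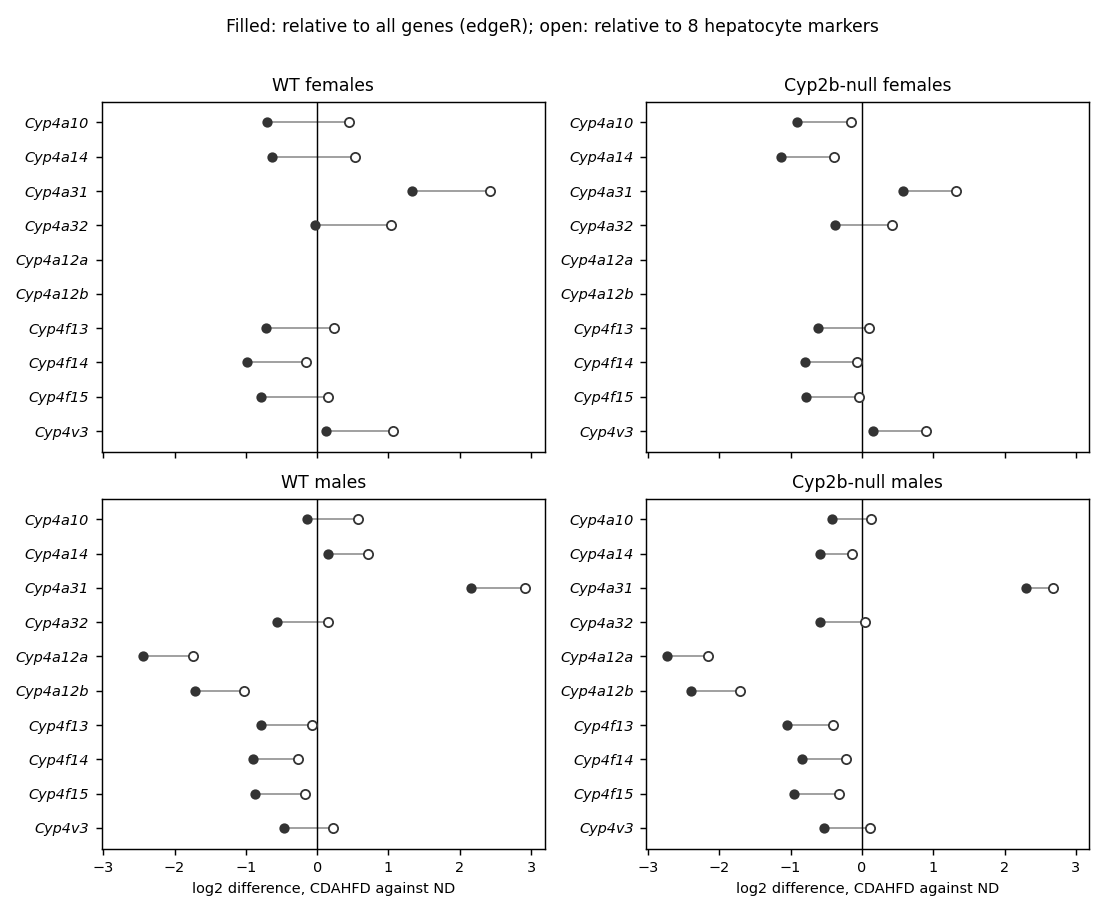
Log2 diet effect of each Cyp4 gene from edgeR (filled) and the same difference relative to the mean of 8 hepatocyte markers, on log2(CPM + 1) (open), in the 4 diet comparisons. The open points of the Cyp4f genes lie between -0.41 and 0.23, while those of Cyp4a31 lie between 1.32 and 2.91 and those of Cyp4a12a in males at -1.74 and -2.16.

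The genotype comparison asked whether loss of Cyp2b9, Cyp2b10 and Cyp2b13 changed the members. By edgeR's quasi-likelihood test 0 of 8 members in females and 0 of 10 in males were called on either diet, and the same holds for all genes nearly throughout (0.0756% of genes called in females on ND, 0.0227% on CDAHFD, 0.0371% in males on ND and 0.0297% on CDAHFD). The log2 differences of Cyp2b-null against WT lay between 0.03 and 0.43 in females on ND, between -0.32 and 0.33 in females on CDAHFD, between -0.18 and 0.37 in males on ND and between -0.63 and 0.17 in males on CDAHFD. No member had an unadjusted p under 0.05 in any of these (0 in each), and DESeq2 called 0 as well. The half-widths of the 95% confidence intervals ran from 0.223 to 0.994 on the log2 scale, so that smaller differences could not be resolved. The diet effect was not called different by genotype for any member tested either, with 0 of 8 called in females and 0 of 10 in males by edgeR's quasi-likelihood test, 0 with an unadjusted p under 0.05 and 0 by DESeq2 (all genes 0% in females and 0.00743% in males). For these differences the 95% half-widths were wider, from 0.402 to 1.14 in females and from 0.315 to 1.40 in males (log2). Differences smaller than these could not be resolved.

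The fall of the members was set beside other genes of fatty acid oxidation. On a list of 20 partners of omega-oxidation and peroxisomal oxidation of dicarboxylic acids, the number called lower on CDAHFD was 9 in WT females, 8 in Cyp2b-null females, 10 in WT males and 11 in Cyp2b-null males, and 1 was called higher in each. Their median log2 changes were -0.48, -0.26, -0.44 and -0.57 in that order, beside shares of all genes called lower of 10.2%, 13.9%, 15% and 17.1%. The long-chain acyl-CoA synthetase Acsl1 changed by -1.04 ± 0.22, -1.35 ± 0.22, -1.33 ± 0.19 and -1.49 ± 0.19 in that order (log2, all called), and the peroxisomal transporter Abcd3 by -0.80 ± 0.15, -0.95 ± 0.15, -1.05 ± 0.14 and -1.22 ± 0.14 (all called). Acot4, a peroxisomal thioesterase for dicarboxylic acyl-CoA, changed by -0.88 ± 0.19 and -1.10 ± 0.19 in WT and Cyp2b-null females and was not called in males. The thiolase Acaa1a was the called rise in females (0.46 ± 0.15 in both genotypes).

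PPARα and its known targets, formed a list of 24 genes with 21 tested. In WT females 6 were called higher and 2 lower (all genes 13.9% and 10.2%), in Cyp2b-null females 3 and 5 (16.9% and 13.9%), in WT males 4 and 5 (18% and 15%), and in Cyp2b-null males 3 and 9 (20.3% and 17.1%). Their median log2 changes were -0.06, -0.18, -0.07 and -0.36, and several of these counts are near the shares over all genes. Ppara itself was not called in WT mice (log2 changes of -0.10 ± 0.20 in females and -0.07 ± 0.15 in males), and fell in Cyp2b-null females (-0.77 ± 0.20) and males (-0.43 ± 0.15). Among the thioesterases Acot2 rose in all 4 (1.31, 1.16, 1.24 and 1.11), Acot3 fell in females (-2.22 and -1.93), and Acot1 was called lower in Cyp2b-null females, WT males and Cyp2b-null males (-1.80, -1.81 and -2.53). The fatty acid binding protein Fabp1 fell in males (-1.12 and -1.48). Fgf21, a fasting and stress hormone of the liver, rose in WT females and WT males (3.27 ± 0.69 and 2.94 ± 0.70), and its changes of 1.28 and 1.07 in Cyp2b-null mice were not called. For the difference of the diet effects between genotypes, 0 of the 21 tested genes were called in females and 0 of 21 in males (edgeR). No difference between the genotypes is therefore read from a call in 1 genotype alone.

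The Cyp4f enzymes act on leukotriene B4, and the genes of its synthesis and signalling formed a list of 9, of which 5 were abundant enough to test. None was called lower, and 3 were called higher in WT females, 2 in Cyp2b-null females, 3 in WT males and 3 in Cyp2b-null males. Over all genes 13.9%, 16.9%, 18% and 20.3% were called higher in that order. Alox5ap, which presents arachidonic acid to the 5-lipoxygenase and is expressed in myeloid cells, rose by 2.14 ± 0.31, 2.05 ± 0.29, 3.61 ± 0.36 and 3.51 ± 0.34 on the log2 scale in the same order. Ptgr1, a reductase that inactivates leukotriene B4, rose in all 4 (0.93, 1.45, 0.95 and 1.55), and the phospholipase Pla2g4a in all but Cyp2b-null females (0.89, 2.06 and 2.08 in WT females, WT males and Cyp2b-null males). Macrophage markers rose in the same libraries, and their part in these rises was not tested.

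Another 10 Cyp4 genes were on a list of their own, and 4 of them were tested. Cyp4f18, the leukotriene B4 hydroxylase of mouse myeloid cells, rose on CDAHFD in all 4 comparisons (3.05 ± 0.58, 2.95 ± 0.53, 2.83 ± 0.50 and 3.28 ± 0.50 on the log2 scale) from means of 0.465 to 0.802 CPM to means of 3.64 to 6.8 CPM. Cyp4f16 rose as well (0.94 ± 0.29, 1.46 ± 0.29, 2.67 ± 0.25 and 2.31 ± 0.24), less in WT females than in WT males (log2 difference -1.75 ± 0.39, edgeR adjusted p = 0.0183). Both went against the direction of Cyp4f13, Cyp4f14 and Cyp4f15. Cyp4b1 was called lower in females (-0.71 ± 0.23 and -1.32 ± 0.23) and had uncalled changes of -0.54 and -0.45 in males, and its WT diet effect was not called different between the sexes (edgeR adjusted p = 0.947). The remaining tested gene, Cyp4f17, named after its values were seen, was called lower in Cyp2b-null males (-1.02 ± 0.22, edgeR adjusted p = 0.000952) and had uncalled changes of 0.21, 0.05 and -0.38 in WT females, Cyp2b-null females and WT males.

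The genes most like Cyp4f14 over the libraries were, in females, the plasma protein gene Afm (r = 0.961), followed by Tmbim6 (0.931) and the mitochondrial carrier Slc25a23 (0.93), and in males plasminogen Plg (0.977), fibrinogen gamma Fgg (0.976) and prothrombin F2 (0.964), each over 16 libraries that share the diet groups. Within groups the Cyp4f genes were less alike, with r = 0.57 between Cyp4f14 and Cyp4f15 in males and 0.18 in females, against 0.90 and 0.80 over all 16 libraries of each table. For Cyp4f13 and Cyp4f14 the within-group r was 0.01 in males and 0.42 in females, against 0.83 in each table. For Cyp4f13 and Cyp4f15 it was 0.28 and 0.59, against 0.92 and 0.88.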

How the data were processed

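Liver RNA was isolated by the authors in TRIzol, made into NEB Next Ultra libraries and sequenced as pairs of 150-base reads on a NovaSeq. Per the submitters' processing notes, FastQC, Trimmomatic, GSNAP on GRCm38.p6 and Subread featureCounts made the raw counts that the authors deposited, in 1 table per sex. Their versions and the settings for strand and for reads with several matches are not given in the sources used here. The counts are whole numbers, and every column was mapped to a library by its title.

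Genes were filtered with filterByExpr in each table (minimum count 10, minimum total 15), leaving 13226 in females, 13460 in males and 14020 in both tables joined, where the sexes were compared. Counts were TMM-scaled and fitted with edgeR 4.0.16 (R 4.3.3), 4 groups per table or 8 in the joint fit, and adjusted over all genes (Benjamini-Hochberg). The fit was also run on simulated counts with equal numbers of rises and falls. That run cannot test the change in library makeup on CDAHFD, and its outcome is not reported here. Printed CPM use factors over all 32 libraries. Members failing the filter were fitted without it. Ratios and hepatocyte-marker differences were tested by exact permutation of 4 against 4 libraries. A gene was at the floor where every library of a group had at most 3 counts.

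All members are named. From each list, the 2 largest rises and 2 largest falls among genes called for diet in WT mice of each sex are named, with Ppara and any list gene called for genotype. Likeness is Pearson's r of log2 CPM (prior count 1). The members and lists were chosen with earlier results of these data known. Alternatives were RLE factors, library size only, no filter, 1 CPM in 4 libraries, DESeq2 1.42.0, the replicate number as a block, only the groups compared, copies summed, the study's 2-step rule, the libraries absent from the heat maps left out, each library left out in turn and, added later, scaling to hepatocyte markers. The values of some genes counted in the lists are not reported here.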

Additional observations from a re-analysis of the deposited data

Results flagged for a closer look

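Of 75 sets of 4 libraries of 1 member and group, 6 held a library far from the other 3, by Dixon's ratio of its gap to the whole range, read at his 95% limit for 4 values; chance alone marks about 1 set in 20. CDAHFD-fed Cyp2b-null male replicate 1 was high in 3 members at once. It had 425 CPM of Cyp4a10 against 155 to 192 CPM in the other libraries of its group (ratio 0.861), 555 CPM of Cyp4a14 against 142 to 178 CPM (ratio 0.911), and 42.6 CPM of Cyp4a31 against 21.1 to 23.9 CPM (ratio 0.869). Without it the diet changes of Cyp4a10 and Cyp4a14 in Cyp2b-null males went from -0.42 and -0.59, not called, to -0.87 and -1.30 on the log2 scale, both called (edgeR adjusted p = 0.0342 and 0.0315). ND-fed WT female replicate 2 had 56.9 CPM of Cyp4a32 against 16.3 to 21.8 CPM (ratio 0.865). ND-fed WT male replicate 4 had 29.5 CPM of Cyp4a12b against 74.1 to 76.4 CPM (ratio 0.95). CDAHFD-fed WT female replicate 3 had 2.78 CPM of Cyp4a12b against 0 to 0.156 CPM (ratio 0.944).

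The diet effect on Mup20 differed between WT females and WT males by 5.29 ± 0.51 on the log2 scale (edgeR adjusted p = 3.98e-08), with Mup20 rising in females and not called in WT males. For Cyp4f16, which rose in both sexes, the rise was smaller in WT females than in WT males (log2 difference -1.75 ± 0.39, edgeR adjusted p = 0.0183).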

How the results depend on the processing

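In Cyp2b-null females members called on CDAHFD against ND went from 5 to 3 with library size only and with DESeq2. The count was also 3 without the 2 libraries absent from the heat maps. Over fits that leave out 1 library it ranged from 3 to 6. With library size only Cyp4a10, Cyp4a14 and Cyp4f13 lost their calls (edgeR adjusted p = 0.111, 0.0911 and 0.0537). Its 3 therefore include a member not called in the main fit. Over all genes 4002 were then called higher and 669 lower, against 2240 and 1834 with TMM. For the other settings the all-gene shares are not given, so nothing about the members is read from the counts. In WT females 8 were called without the low-count filter (4 with it). For WT females against WT males, ND levels gave 3 to 6 called members over fits that leave out 1 library (6 with all), CDAHFD levels gave 4 without the filter and 1 with copies summed (2 as reported), and the diet effects gave 3 without the filter, 3 with DESeq2 and 0 to 1 when 1 library was left out (0 without CDAHFD-fed WT female replicate 3). Genotype on CDAHFD in males gave 1 called member without the filter (Cyp4a14), and genotype on ND in females gave 1 under the study's 2-step rule (Cyp4f13), against 0 as reported. Scaled to hepatocyte markers, the diet change turned to 0.44 for Cyp4a10, 0.53 for Cyp4a14, 0.23 for Cyp4f13, 0.15 for Cyp4f15 and 1.03 for Cyp4a32 in WT females, to 0.10 for Cyp4f13 and 0.42 for Cyp4a32 in Cyp2b-null females, to 0.57 for Cyp4a10, 0.22 for Cyp4v3 and 0.15 for Cyp4a32 in WT males, and to 0.12, 0.11 and 0.039 for Cyp4a10, Cyp4v3 and Cyp4a32 in Cyp2b-null males; the cause was not tested. Changes that were not called also turned: with library size only to 0.27 for Cyp4a10 in WT males and 0.30 for Cyp4a32 in WT females, which was 0.031 with the replicate block, and with 1 library left out they ranged from -0.39 to 0.083 for Cyp4a10 and from -0.44 to 0.44 for Cyp4a14 in WT males and from -0.25 to 0.50 for Cyp4a32 in WT females. Of 350 single-gene values under the other settings, 324 kept direction and side of the threshold, 12 lost the call, 11 gained one and 3 turned; of 352 with 1 library left out, 315 were kept, 23 lost the call, 7 gained one and 7 turned. Of 34 values scaled to hepatocyte markers 13 turned and 18 lost the call, since exact tests of 4 against 4 libraries gave no adjusted p below 0.0857. Depth limits Cyp4a12a and Cyp4a12b in females, at 19 counts or fewer.

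With the replicate number as a block, 4, 5, 8 and 8 members were called for diet in WT females, Cyp2b-null females, WT males and Cyp2b-null males (4, 5, 7 and 7 without it). The shares over all genes with the block are not given here, so these counts are a description. The numbers do not pair libraries: 5 of 48 same-numbered pairs had deviations correlated above 0.1 (range -0.18 to 0.29).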
